A study of Mus musculus with 26 samples.

Results

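Organoids of mouse mammary tumors that had been given ASO1, an antisense oligonucleotide against the long noncoding RNA Malat1, were compared with organoids of the Mock group. The libraries were chosen by their titles, 4 of ASO1 and 4 of Mock, each numbered 1 to 4, which makes 8 of the 26 libraries of the series. The ASO1 cultures had 500 nM of the oligonucleotide in their medium for 6 days, with the medium renewed on day 3. The Mock cultures carry no oligonucleotide in their labels, and what was added to their medium instead is not given there. Both groups came from tumors of C57BL/6 mice with the MMTV-PyMT transgene, in which a viral promoter that is active in mammary epithelium drives the polyoma middle T antigen. Both were grown in Matrigel, a basement membrane gel, with the growth factor FGF2, and polyadenylated RNA was sequenced. Organoids given a second Malat1 oligonucleotide (ASO2) and organoids given the control oligonucleotide scASO, with 4 libraries each at the same dose and time, are used below to set the ASO1 values beside those of other oligonucleotides. The comparison asks which genes differ between tumor organoids given ASO1 and Mock organoids. In it, reduced Malat1 RNA and exposure to an oligonucleotide cannot be told apart.

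Malat1 is an abundant nuclear RNA that collects in nuclear speckles, compartments rich in splicing factors. Antisense oligonucleotides of this kind pair with their target RNA and lead RNase H1 to cut it, and cells take them up through the endosomal route. Tumors of the MMTV-PyMT model are mainly luminal, with basal (myoepithelial) cells at the edge of the epithelium, and in Matrigel the epithelium is surrounded by laminin and collagen that it can bind through integrins and degrade with matrix proteases.

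Genes held 39869538 to 60658678 reads per ASO1 library and 25952113 to 40515685 per Mock library. Libraries with the same number deviated together from their group means, with correlations across genes of 0.855, 0.772, 0.853 and 0.892, and both libraries of number 4 stood apart from the other 6 on the first principal component, which held 73.3% of the variance. Treatment was therefore compared within numbers. The labels do not say what a number stands for or whether replicates were separate animals or cultures. The p-values of the within-number fit therefore measure only how the difference between ASO1 and Mock libraries varied between numbers. Part of that spread may be technical. Epithelial markers were high in every library: Epcam ranged from 1258 to 2667 CPM (read counts scaled by library size) with ASO1 and from 1166 to 2076 CPM with Mock. Per kilobase of merged exon length, Epcam averaged 753 RPKM with ASO1 and 688 RPKM with Mock, and Ptprc, the pan-leukocyte marker, 0.0611 and 0.116 RPKM. The T cell and lymphocyte genes Cd8a and Nkg7 had no read in any of the 8 libraries.

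Malat1 (ENSMUSG00000092341) was lower in all 4 ASO1 libraries than in any Mock library. It stood at 169, 102, 80.4 and 117 CPM in the ASO1 libraries of numbers 1 to 4, against 693, 1446, 668 and 1268 CPM in the Mock libraries of the same numbers. The means were 117 ± 37.6 CPM with ASO1 and 1019 ± 397 CPM with Mock (SD, n = 4 each). The geometric mean with ASO1 was 11.8% of that with Mock, and by number 24.3, 7.06, 12 and 9.27% remained, so that number 1 kept most. The log2 fold change was -3.09 ± 0.28 (SE, edgeR adjusted p = 0.00756). The exact two-sided permutation test over all 70 splits gave p = 0.0286, and swapping treatment within numbers gave p = 0.125, each the smallest p that the test allows. Neat1, the adjacent noncoding RNA on which paraspeckles are built, stood at 982, 657, 803 and 1140.2 CPM with ASO1 and at 840.2, 687, 832 and 1669.9 CPM with Mock. It was lower with ASO1 in 3 of 4 numbers and its groups overlapped (log2 fold change -0.11 ± 0.13, edgeR adjusted p = 0.687, exact permutation p = 0.743). Among 27 tested genes of a list of Malat1 and its neighbours on chromosome 19, edgeR called Malat1 lower in the 8 libraries and no other member. Without the filter on low counts, in the fit of 14 organoid libraries and by DESeq2, 2 other members were called higher.

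**Figure D1:**
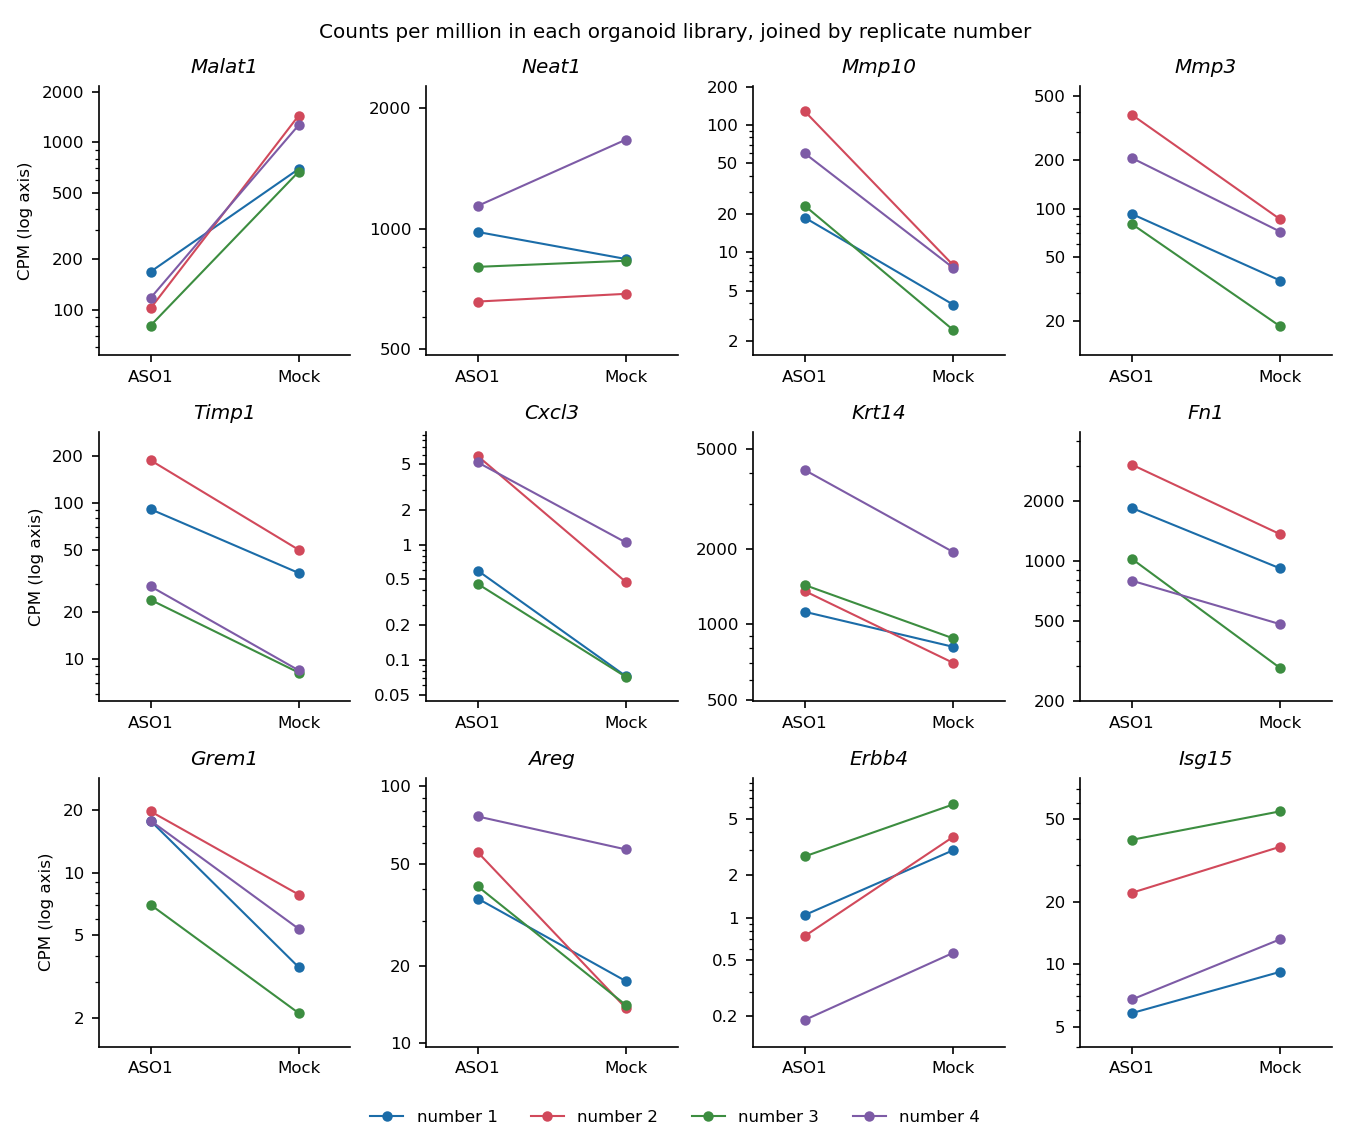
CPM on log axes for 12 genes, with 1 point per library and a line joining the ASO1 library to the Mock library of the same replicate number. Malat1 lies between 80.4 and 169 CPM with ASO1 and between 668 and 1446 CPM with Mock, while the protease, chemokine, keratin and matrix genes are higher with ASO1 within every number although several groups overlap.

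Of 16193 genes tested, 423 (2.61%) were called at an adjusted p under 0.05, 329 (2.03%) higher and 94 (0.58%) lower with ASO1. The response was thus mostly upward among called genes, with a median log2 fold change of 0.88 for genes called higher and -0.62 for genes called lower. More than 2-fold changes were seen for 131 genes called higher and 15 called lower. List counts below are from this edgeR fit of the 8 libraries unless another fit or tool is named. Of the 423 genes, 422 had the same direction in all 4 numbers. They were picked by a fit within these numbers, so that count was largely set by the choice and is no independent support. The same holds where a called gene is said below to be higher or lower in every number. The CPM of the 2 groups did not overlap for 53 called genes, against 166 (1.03%) of all genes tested. In bulk libraries such as these, fewer cells of a type and less RNA per cell cannot be told apart. Without the number in the model no gene was called by edgeR, with 239 genes at an unadjusted p under 0.05. Leaving out number 1, 2, 3 or 4 left 195, 128, 112 and 243 calls. All called genes that could still be tested kept their direction in these 4 fits, 54 were called in each of them (51 higher, 3 lower) and 269 in at least 1.

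**Figure D2:**
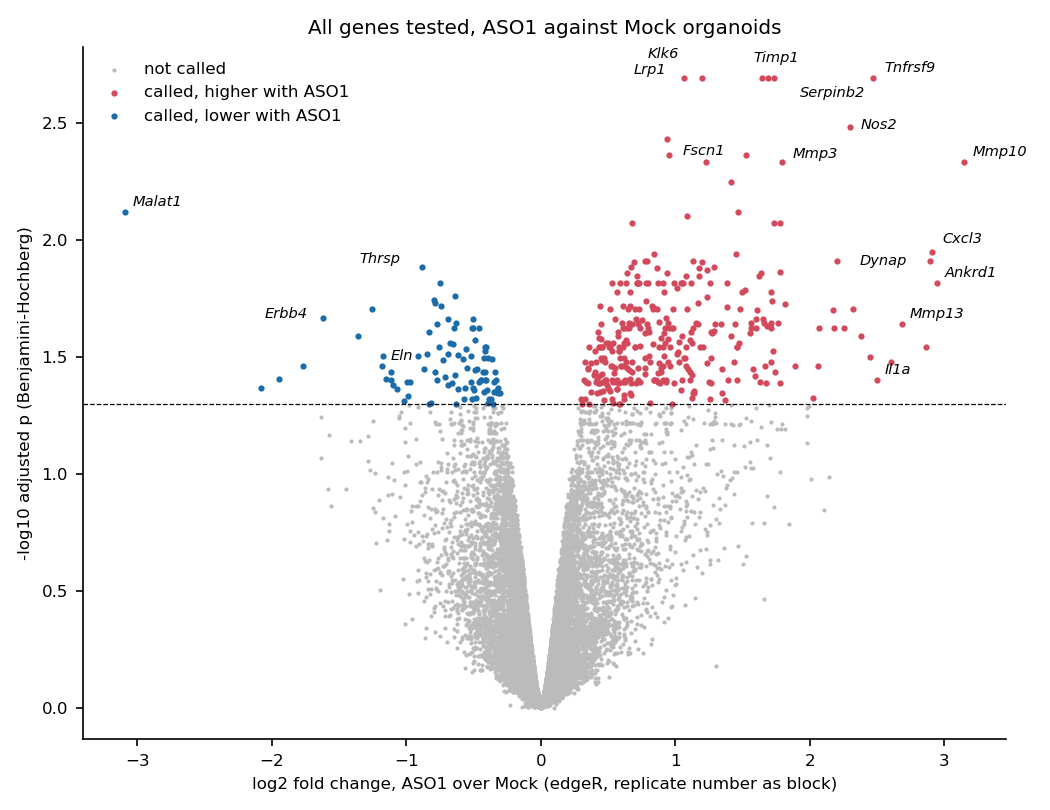
Log2 fold change of ASO1 over Mock (x axis) against -log10 of the adjusted p (y axis) for the 16193 genes tested, with called genes in colour and the threshold of 0.05 dashed. Genes called higher (329) outnumber those called lower (94), Mmp10 lies furthest right among called genes at 3.15 and Malat1 furthest left at -3.09.

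Genes of extracellular proteolysis held the highest share of calls among the lists in the edgeR fit of the 8 libraries. In the fits of 14 and of 16 organoid libraries and by DESeq2, NF-kB targets, chemokines and cytokines held a higher share. Of 32 tested members of a list of matrix metalloproteases, the plasmin system and their inhibitors, 13 rose and none fell, with a median log2 fold change of 0.49 over the list against -0.01 over all genes tested. Without numbers 1 to 4 in turn, 9, 11, 7 and 11 members were called higher, and DESeq2 called 16 higher and 1 lower. Among the proteases, Mmp10 (stromelysin-2) showed the largest change: it stood at 18.7, 128, 23.2 and 59.9 CPM with ASO1 and at 3.90, 7.98, 2.47 and 7.59 CPM with Mock, without overlap between the groups. Its log2 fold change of 3.15 ± 0.26 is 8.86-fold (edgeR adjusted p = 0.00464). Mmp3 (stromelysin-1) stood at 92.4, 383, 80.0 and 206 CPM with ASO1 and at 35.6, 85.7, 18.5 and 71.8 CPM with Mock. The Mmp3 groups overlapped, yet the ASO1 library was the higher in each number (log2 fold change 1.79 ± 0.14, edgeR adjusted p = 0.00464). Mmp13, an interstitial collagenase, stood at 22.9, 311, 24.5 and 200.3 CPM with ASO1 and at 3.69, 16.7, 5.46 and 59.7 CPM with Mock, again with overlap and higher in each number (2.68 ± 0.39, edgeR adjusted p = 0.0229). The call for Mmp13 was lost without number 1 (edgeR adjusted p = 0.0552) and without number 3 (0.0532). The elastase Mmp12 was also called higher (1.39), as were the secreted aggrecanases and versican proteases Adamts1 (1.29), Adamts4 (1.09) and Adamts5 (1.44) and the membrane protease Adam8 (1.39), all as log2 fold changes.

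Genes of the plasmin system and the inhibitor genes Serpinb2 and Timp1 were among those that rose. The urokinase gene Plau had a log2 fold change of 1.46 ± 0.27, its receptor Plaur of 0.93 ± 0.17, and the tissue plasminogen activator gene Plat of 1.06 ± 0.13. Serpinb2, which encodes plasminogen activator inhibitor-2, stood at 2.80, 4.03, 3.62 and 83.1 CPM with ASO1 and at 0.795, 1.09, 1.28 and 24.4 CPM with Mock, so that most of its reads came from number 4 while the ratio was alike in all numbers (within-number log2 ratios 1.76, 1.84, 1.46 and 1.77). Its exons overlap those of Serpinb10 on the same strand, which leaves the assignment of its reads uncertain. Timp1, the tissue inhibitor of metalloproteases, stood at 91.0, 187, 23.9 and 29.2 CPM with ASO1 and at 35.6, 50.02, 8.20 and 8.47 CPM with Mock. For Timp1 the numbers differed more than the treatments, and the ASO1 library was 3.13-fold higher on average within numbers (log2 fold change 1.64 ± 0.10, edgeR adjusted p = 0.00203). Lrp1, an endocytic receptor that clears protease-inhibitor complexes, stood at 389.9, 502, 205 and 371 CPM with ASO1 and at 179, 248, 97.6 and 179.8 CPM with Mock, with within-number log2 ratios of 1.12, 1.02, 1.07 and 1.04 (edgeR adjusted p = 0.00203). Klk6, a secreted serine protease of the kallikrein family, had a log2 fold change of 1.19 ± 0.07. Ctsb, the most abundant member of the list, stood at 600.4 to 897 CPM with ASO1 and at 542 to 785 CPM with Mock (0.17 ± 0.07, edgeR adjusted p = 0.248). Mmp10, Mmp3, Timp1, Serpinb2, Lrp1 and Klk6 were called without any 1 of the 4 numbers.

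Mmp10, Mmp3 and Mmp13 lie in one stretch of chromosome 9. The 150 bases before the start of each are shown because each holds the letters TGANTCA, the core that AP-1 (Fos and Jun family dimers) binds, in capitals. The sequences are from RefSeq on GRCm38.p6, plus strand, 5′ to 3′ and ending at the base before the start.
Mmp10, chr9:7502192-7502341: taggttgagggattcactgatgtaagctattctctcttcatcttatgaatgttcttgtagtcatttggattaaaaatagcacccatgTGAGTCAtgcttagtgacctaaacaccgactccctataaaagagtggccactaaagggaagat
Mmp3, chr9:7445672-7445821: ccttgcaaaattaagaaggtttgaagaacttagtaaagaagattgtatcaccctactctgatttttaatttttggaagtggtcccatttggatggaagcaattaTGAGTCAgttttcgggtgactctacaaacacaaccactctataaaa
Mmp13, chr9:7272364-7272513: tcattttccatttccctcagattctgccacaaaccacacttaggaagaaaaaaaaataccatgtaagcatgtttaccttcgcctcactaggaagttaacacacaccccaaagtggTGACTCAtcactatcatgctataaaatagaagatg

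The match began 63, 46 and 35 bases before the start. In windows of 300 bases, 250 before the start and 50 after it, searched on both strands, TGANTCA was present in 8.97% of 27025 genes with a promoter in the table. It was present in 6 of the 9 called genes of the protease list with a promoter there, the others being Mmp12, Serpinb2 and Plaur. Among genes called higher 35 of 244 with a promoter held it (14.3%), among genes called lower 6 of 62 (9.68%), and among tested genes not called 6.56%. A match describes these letters only. Of the 28 tested genes of a list of AP-1 subunits and other immediate early genes, 1 (Egr3, 0.53) was called higher. That call was lost in each of the 4 fits that leave out 1 number, and DESeq2 called 3 higher and none lower.

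Inflammatory mediators rose as well. Of 34 tested members of a list of NF-kB targets, chemokines and cytokines, 10 rose and none fell, with a median log2 fold change of 0.44 and 28 estimates above 0. Without numbers 1 to 4 in turn, 10, 3, 1 and 5 were called higher, the fewest without number 3. DESeq2 called 17 higher and 2 lower. The neutrophil-attracting chemokine Cxcl2 stood at 4.29, 12.9, 2.46 and 12.1 CPM with ASO1 and at 1.83, 2.06, 0.713 and 5.14 CPM with Mock (log2 fold change 1.71 ± 0.25, edgeR adjusted p = 0.0238). The Cxcl2 groups overlapped and ASO1 was the higher in every number. Cxcl5 was called with a larger change (2.06 ± 0.35), and stood at 34.6, 79.2, 56.6 and 135 CPM with ASO1 and at 23.7, 15.96, 10.6 and 17.99 CPM with Mock, without overlap. Cxcl3, of the same chemokine cluster, was near the limit of detection in numbers 1 and 3, at 0.596, 5.87, 0.457 and 5.17 CPM with ASO1 and 0.0723, 0.474, 0.0713 and 1.04 CPM with Mock (2.91 ± 0.29). Its ASO1 library was the higher in every number too. Ccl2, which attracts monocytes, was called at 1.11 ± 0.20.

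Among cytokines, Il1a, which signals through the interleukin-1 receptor, stood at 1.96, 33.4, 6.46 and 29.9 CPM with ASO1 and at 0.409, 2.12, 0.879 and 13.9 CPM with Mock. Its within-number log2 ratios of 2.13, 3.95, 2.81 and 1.102 spread widely (2.497 ± 0.45, edgeR adjusted p = 0.0396), and the call was lost without number 1, 2 or 3 (edgeR adjusted p up to 0.115). The receptor antagonist Il1rn rose less (0.78 ± 0.13). Lif, a cytokine of the interleukin-6 family, stood at 129.5, 197, 97.4 and 148 CPM with ASO1 and at 83.6, 61.5, 41.8 and 66.6 CPM with Mock, with no overlap (1.17 ± 0.15, edgeR adjusted p = 0.0185), and its call was lost without number 3 (0.0572). Tnfaip2 (0.92), Nfkbie, an inhibitor of NF-kB (0.54), and the complement component C3 (1.14) complete the called members. Lcn2, lipocalin-2 and the most abundant member, stood at 3563 to 5428 CPM with ASO1 and 3994 to 5902 CPM with Mock (-0.12 ± 0.12, edgeR adjusted p = 0.646). Outside the list, the inducible nitric oxide synthase Nos2 stood at 9.46, 69.4, 9.67 and 23.2 CPM with ASO1 and at 1.45, 12.6, 1.81 and 7.11 CPM with Mock (2.299 ± 0.16), and Tnfrsf9, a receptor of the TNF family, at 3.13, 68.6, 5.86 and 21.6 CPM with ASO1 and 0.409, 13.4, 0.737 and 5.06 CPM with Mock (2.47 ± 0.16). Nos2 and Tnfrsf9 were higher with ASO1 within every number although their groups overlapped, and both were called without any 1 of the numbers. The summed level of 30 macrophage and leukocyte genes, several of which epithelium also expresses, ranged from 295 to 791 CPM with ASO1 and from 299 to 664 CPM with Mock, and the part of such cells in the chemokine and cytokine changes was not tested.

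For Cxcl3 and Cxcl2 the 150 bases before the start are shown because both hold GGGA, any base and TTTCC, a form of the NF-kB site, in capitals (RefSeq, GRCm38.p6, plus strand).
Cxcl3, chr5:90785951-90786100: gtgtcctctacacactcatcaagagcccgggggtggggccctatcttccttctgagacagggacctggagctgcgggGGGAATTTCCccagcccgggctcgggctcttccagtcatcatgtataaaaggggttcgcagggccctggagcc
Cxcl2, chr5:90903749-90903898: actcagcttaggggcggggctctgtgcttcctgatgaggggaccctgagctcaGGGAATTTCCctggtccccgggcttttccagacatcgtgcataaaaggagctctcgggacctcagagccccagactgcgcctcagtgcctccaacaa

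The matches began 73 and 97 bases before the start. In the 300-base windows, on both strands, these letters were present in 0.466% of the 27025 genes and in 2 of the 8 called genes of the list with a promoter in the table. Among all genes called higher 3 of 244 with a promoter held them (1.23%), among genes called lower 1 of 62 (1.61%), and among tested genes not called 0.481%.

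Genes of mesenchymal character and of the cell-matrix interface rose. Of 28 tested members of a mesenchymal transition list, 9 rose and none fell (median log2 fold change 0.54), and 5, 6, 8 and 9 were called without numbers 1 to 4 in turn. DESeq2 called 15 higher and none lower. The summed level of 25 fibroblast and collagen genes ranged from 709.9 to 1621 CPM with ASO1 and from 637 to 1448 CPM with Mock, higher with ASO1 in 3 of 4 numbers, and the part of such cells in the mesenchymal and matrix changes was not tested. Fn1 (fibronectin) stood at 1840.1, 3028, 1024 and 797 CPM with ASO1 and at 918, 1361, 292 and 483 CPM with Mock (1.17 ± 0.17, edgeR adjusted p = 0.0228). Vim (vimentin, an intermediate filament of mesenchymal and basal cells) stood at 352, 324, 315 and 199 CPM with ASO1 and at 171, 189, 215 and 75.1 CPM with Mock (0.94 ± 0.13, edgeR adjusted p = 0.0226). In Fn1 and Vim the groups overlapped while each number gave the higher value to ASO1, and both calls were lost without number 1 or number 2 (edgeR adjusted p up to 0.0757 and 0.0638). The receptor tyrosine kinase Axl had within-number log2 ratios of 0.87, 1.12, 0.89 and 0.88. The hyaluronan receptor Cd44 (0.64 ± 0.07), the calcium-binding S100a4 (1.18 ± 0.13), the homeobox factor Prrx1 (0.94 ± 0.10) and the matrix protein Tnc, tenascin-C (1.52 ± 0.19), were called too. Itgav and Itga5 complete the called members and also belong to the list of laminins and integrins, so the counts of these lists share genes.

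Of 32 tested laminins, integrins and basement membrane genes, 8 rose and none fell (median 0.31), with 3, 4, 3 and 5 called without numbers 1 to 4 in turn and 15 higher and none lower by DESeq2. They include the collagen receptor subunit Itga2, at 99.3, 361, 61.7 and 84.3 CPM with ASO1 and 59.4, 161, 33.2 and 54.3 CPM with Mock (0.86 ± 0.09, edgeR adjusted p = 0.0131), the laminin receptor subunits Itga3 (0.75 ± 0.10) and Itgb4 (0.60 ± 0.10), and the fibronectin and vitronectin receptor subunits Itga5 (1.09 ± 0.19) and Itgav (0.44 ± 0.06). Itgav showed a small change with groups that did not overlap, at 224, 225, 209.8 and 251 CPM with ASO1 and 167, 169.6, 151 and 183 CPM with Mock. The basement membrane proteoglycan perlecan (Hspg2) had a log2 fold change of 0.80 ± 0.09, the laminin chain Lamb1 of 0.45 ± 0.07, and the hemidesmosomal collagen Col17a1 of 0.54 ± 0.08. Itgb1, the beta subunit shared by many integrins, stood at 874 to 1408 CPM with ASO1 and 768 to 1071 CPM with Mock (0.23 ± 0.08, edgeR adjusted p = 0.196).

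The basal keratin genes Krt14, Krt17 and Krt5 rose. Of 30 tested basal and myoepithelial genes, 7 rose and none fell (median 0.27), and 2, 2, 1 and 5 were called higher without numbers 1 to 4 in turn. A fit without number 1 and a fit without number 4 each called 1 member lower, and DESeq2 called 10 higher and 1 lower. Krt14 stood at 1119.5, 1353, 1431 and 4109.6 CPM with ASO1 and at 812, 702, 878 and 1939.7 CPM with Mock (0.80 ± 0.12, edgeR adjusted p = 0.0237), and Krt17 at 317, 577, 233 and 1319.9 CPM with ASO1 and 185, 237, 133 and 880.2 CPM with Mock (0.86 ± 0.12). Number 4 held the highest level of both keratins in either group, the groups overlapped, and ASO1 was the higher in every number. Krt5, the partner of Krt14, had a log2 fold change of 0.71 ± 0.13, and P-cadherin (Cdh3) of 0.72 ± 0.10; Vim, Itgb4 and Col17a1 belong to this list as well. The calls of Krt14 and Krt17 were lost without number 3 (edgeR adjusted p = 0.0707 and 0.0631), that of Krt14 also without number 2 (0.0789) and that of Krt17 without number 1 (0.0541). The contractile smooth muscle actin gene Acta2 averaged 254 CPM with ASO1 and 220.4 CPM with Mock, and the basal transcription factor Trp63 168 and 145 CPM, neither called (edgeR adjusted p = 0.456 and 0.299). Of the 30 estimates 8 were below 0. Igfbp5, the most abundant member, stood at 1834 to 11248 CPM with ASO1 and 1628 to 15200 CPM with Mock (-0.35, edgeR adjusted p = 0.354). The summed level of the 30 genes ranged from 14907 to 19190 CPM with ASO1 and from 10600 to 20673 CPM with Mock. That sum was lower with ASO1 in numbers 2 and 3.

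Of 28 tested squamous keratin and cornified envelope genes, 3 rose and none fell, with 2, 1, 2 and 1 called higher without numbers 1 to 4 in turn and 8 higher and none lower by DESeq2. They were the desmosomal cadherin Dsg3 (1.01 ± 0.12), the stress keratin Krt6a (1.11 ± 0.17) and stratifin (Sfn, 0.70 ± 0.11). Krt6a has a near-identical copy, Krt6b, and overlaps antisense gene models, so its counts are uncertain. Of 29 tested luminal genes, Areg and Ly6a were called higher and Xbp1 lower, and DESeq2 called 5 higher and 3 lower. The luminal keratins Krt7 (0.54), Krt18 (0.23) and Krt19 (0.34) and the basal keratin Krt15 (0.40) had log2 fold changes above 0 that did not pass the test. Krt8 averaged 1269 CPM with ASO1 and 1009 CPM with Mock, and Cdh1 (E-cadherin) 766 and 718 CPM (edgeR adjusted p = 0.312 and 0.648). Of 25 tested milk protein and secretory genes, Spp1 (osteopontin) was called higher (0.93 ± 0.13) and none lower, with 9 at an unadjusted p under 0.05 and 2 higher and 2 lower by DESeq2. The call was lost without number 3 and without number 4.

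**Figure D3:**
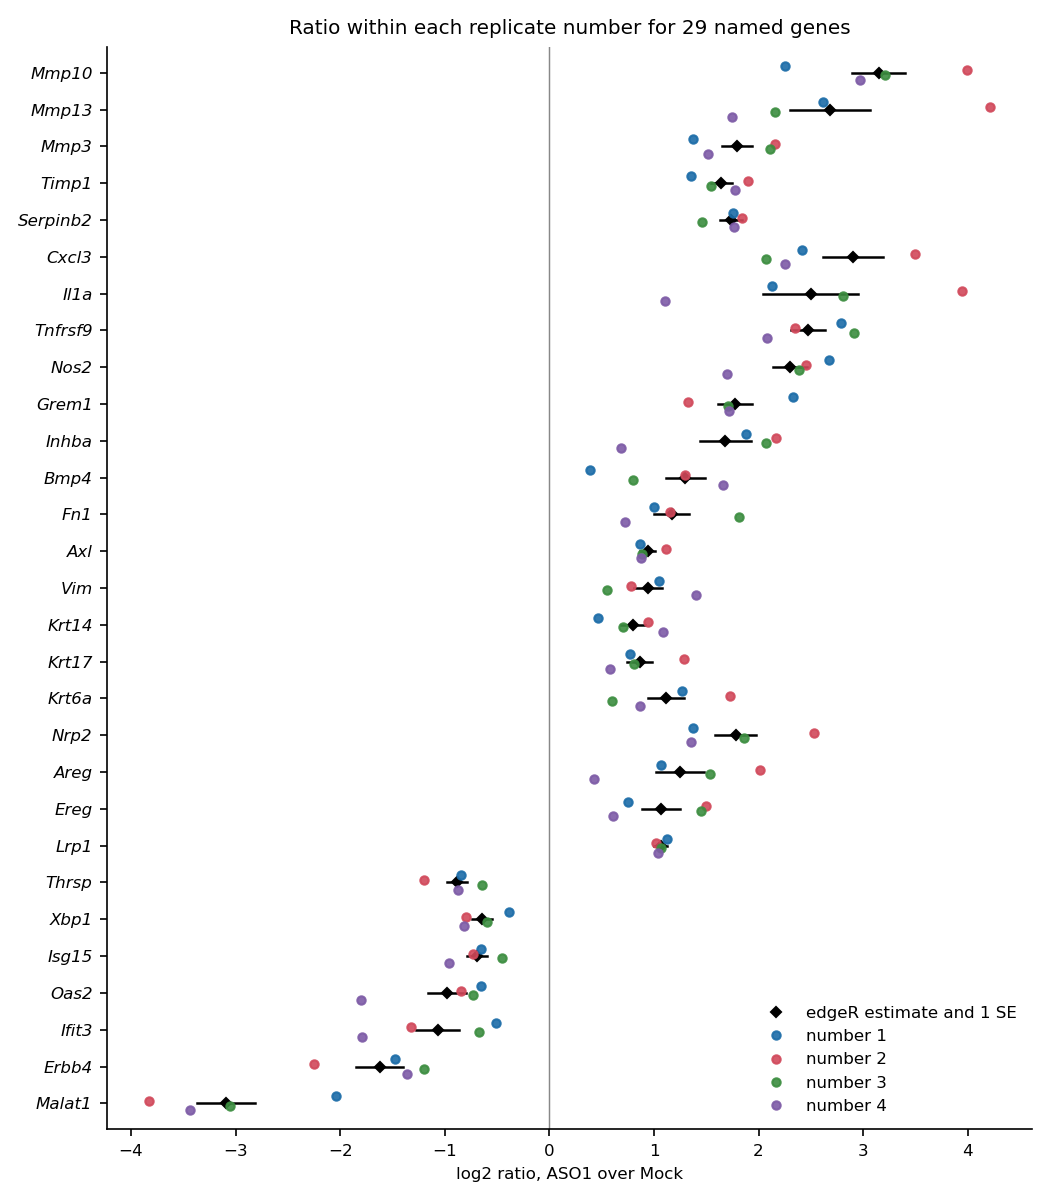
Log2 ratio of ASO1 over Mock within each replicate number (coloured points) for 29 named genes, with the edgeR estimate and 1 standard error in black. Ratios lie on 1 side of 0 in all 4 numbers for every gene shown, with the widest spread for Il1a and Mmp13.

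Secreted signals and their receptors changed in several families. In the TGF-beta and BMP list, 6 of 31 tested genes rose and 1 fell (median 0.19), and 3, 1, 2 and 2 were called higher without numbers 1 to 4 in turn. The BMP antagonist Grem1 stood at 17.8, 19.8, 7.03 and 17.9 CPM with ASO1 and at 3.52, 7.87, 2.11 and 5.38 CPM with Mock (1.78 ± 0.17, edgeR adjusted p = 0.00844), with overlap at 7.03 CPM in the ASO1 library of number 3. It was higher with ASO1 in every number and called without any 1 of them. The BMP ligands Bmp4 (1.298 ± 0.19) and Bmp2 (1.05 ± 0.16) and the activin subunit Inhba (1.68 ± 0.24) rose as well. Bmp4 was expressed chiefly in number 4, at 0.298, 2.48, 1.70 and 66.1 CPM with ASO1 and 0.217, 0.976, 0.95 and 20.9 CPM with Mock, and its call was lost without number 2 or 4 (edgeR adjusted p = 0.0673 and 0.124). Tgfb1 was called higher (0.31 ± 0.06) and Tgfb3 lower (-0.50 ± 0.09), and the metalloprotease Bmp1, which cleaves procollagens, higher (0.56 ± 0.10). The most abundant member, the latent TGF-beta binding protein Ltbp2, had a log2 fold change of 0.14 ± 0.12 (edgeR adjusted p = 0.589).

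The epidermal growth factor receptor ligands Areg, Ereg and Tgfa rose and the receptor Erbb4 fell. Of 17 tested ErbB receptors and ligands, 3 were called higher and 1 lower, with counts higher of 0, 0, 0 and 3 without numbers 1 to 4 in turn. Amphiregulin (Areg) stood at 36.6, 55.5, 40.8 and 76.4 CPM with ASO1 and at 17.5, 13.7, 14.1 and 56.9 CPM with Mock (1.2501 ± 0.23, edgeR adjusted p = 0.0404). The Areg groups overlapped, with ASO1 the higher in every number. Epiregulin (Ereg) had a log2 fold change of 1.07 ± 0.18 and Tgfa of 0.35 ± 0.06. Erbb4, a receptor for neuregulins, was lowly expressed at 1.04, 0.74, 2.71 and 0.189 CPM with ASO1 and 2.99, 3.71, 6.30 and 0.562 CPM with Mock, lower with ASO1 in each number (-1.62 ± 0.22, edgeR adjusted p = 0.0215). The call for Erbb4 was lost without number 1 or 3 (edgeR adjusted p up to 0.0552), and those for Areg and Ereg without number 1, 2 or 3 (up to 0.124 and 0.0998). Tgfa was called in none of the 4 fits (edgeR adjusted p up to 0.137), although it was higher with ASO1 in every number.

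Of 34 tested Wnt ligands, receptors and targets, 5 rose and none fell (3, 1, 2 and 0 without numbers 1 to 4 in turn), while DESeq2 called 7 higher and 2 lower and limma-voom 5 higher and 1 lower. They were the ligands Wnt11 (1.17 ± 0.13), Wnt7b (0.96 ± 0.15) and Wnt10a (0.97 ± 0.19), the receptor Fzd1 (0.33 ± 0.06) and the transcription factor Tcf7 (0.47 ± 0.08). Wnt11 stood at 1.39, 3.75, 0.75 and 26.0 CPM with ASO1 and at 0.578, 1.59, 0.404 and 11.3 CPM with Mock, so that number 4 held most of its reads. Of 39 tested semaphorin, ephrin and guidance genes, 4 rose and none fell (2, 2, 2 and 2 without numbers 1 to 4 in turn), while DESeq2 called 10 higher and 1 lower. Neuropilin-2 (Nrp2), a semaphorin and VEGF-C co-receptor, stood at 32.5, 131, 17.6 and 113 CPM with ASO1 and at 12.5, 22.6, 4.82 and 44.3 CPM with Mock (1.78 ± 0.20, edgeR adjusted p = 0.0137). Its groups overlapped, with ASO1 the higher in every number. The semaphorin receptors Plxnd1 (0.91 ± 0.11) and Plxna1 (0.43 ± 0.07) and the netrin receptor Unc5b (0.45 ± 0.07) were the others. In the Notch list Jag1 (0.98 ± 0.15) and Notch2 (0.36 ± 0.06) were called higher of 24 tested genes, with 0, 0, 0 and 1 called higher without numbers 1 to 4 in turn.

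Further genes with small p-values or large changes lay outside these lists. Gpnmb, a glycoprotein of melanosomes and lysosomes, stood at 5.56, 14.6, 23.9 and 68.3 CPM with ASO1 and at 1.61, 4.21, 9.24 and 18.8 CPM with Mock (1.69 ± 0.11). Its level differed more between numbers than between treatments, and ASO1 was the higher in each. The actin-bundling protein gene Fscn1 had a log2 fold change of 1.52 ± 0.12, the volume-regulated anion channel subunit Lrrc8c of 0.96 ± 0.07, the plasma membrane calcium pump Atp2b4 of 1.23 ± 0.10 and Emp3, an epithelial membrane protein, of 1.41 ± 0.12. Dynap stood at 6.48, 70.7, 9.77 and 16.04 CPM with ASO1 and at 1.88, 4.94, 1.43 and 2.17 CPM with Mock, without overlap (2.89 ± 0.30). Ankrd1, a known target of YAP, did not overlap either, at 2.66, 21.9, 3.38 and 8.46 CPM with ASO1 and 0.988, 1.98, 0.309 and 0.763 CPM with Mock (2.94 ± 0.35), and its call was lost without number 2 (edgeR adjusted p = 0.0607). Gene models overlap the exons of several genes named here, which leaves part of their reads uncertain. The overlap is on the opposite strand for Fn1, Il1a, Itgav, Bmp4, Wnt11, Wnt7b, Tnfaip2, Tgfa, Ereg, Plxna1, Cd34, Eln, Ltbp2 and Ctsb, on the same strand for S100a4, Rtp4, Atp2b4 and Neat1, and on both for Malat1.

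Among genes called lower, those of the interferon response formed the largest listed group. Of 37 tested interferon-stimulated genes, 4 fell and none rose, 33 estimates were below 0 and the median log2 fold change was -0.49. Without numbers 1 to 4 in turn 2, 0, 1 and 3 were called lower, and in the fit of all 16 organoid libraries, where 407 of 17126 genes were called (2.38%, 1.87% higher and 0.502% lower), none was. DESeq2 called 18 lower and limma-voom 2. Isg15, a ubiquitin-like protein, stood at 5.81, 22.1, 39.7 and 6.76 CPM with ASO1 and at 9.18, 36.8, 54.5 and 13.2 CPM with Mock (-0.69 ± 0.10, edgeR adjusted p = 0.0218). Isg15 was lower with ASO1 in every number, with overlapping groups. The other called members were Ifit3, which binds into antiviral IFIT complexes and has a near-identical copy, Ifit3b, that makes its counts uncertain (-1.07 ± 0.20), the 2′-5′ oligoadenylate synthetase Oas2 (-0.98 ± 0.18) and Rtp4 (-0.58 ± 0.10). Levels differed strongly between numbers, and list medians of the within-number log2 ratio were -0.12, -0.60, -0.38 and -0.87, lowest in number 4. Ifitm3, the most abundant member, stood at 151 to 404 CPM with ASO1 and 138 to 397 CPM with Mock (0.08 ± 0.11, edgeR adjusted p = 0.761). Of 26 tested nucleic acid sensors and adaptors, the endosomal chaperone Unc93b1, which carries Toll-like receptors, fell (-0.32 ± 0.06) and none rose. That call was lost in each of the 4 fits that leave out 1 number, 1 other member was called higher without number 1, and DESeq2 called 2 higher and 5 lower. The 150 bases before the start of Isg15 are shown because they hold 3 overlapping matches to TTTC, any 2 bases and TTTC, the core of the interferon-stimulated response element, on the opposite strand, in capitals (RefSeq, GRCm38.p6, minus strand).
Isg15, chr4:156200819-156200968: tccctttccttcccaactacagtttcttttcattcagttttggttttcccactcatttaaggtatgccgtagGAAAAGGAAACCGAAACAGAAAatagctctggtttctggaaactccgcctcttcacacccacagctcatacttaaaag

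The matches began 78, 72 and 66 bases before the start. In the 300-base windows these letters were present, on either strand, in 3.99% of the 27025 genes, and in both called genes of the list with a promoter in the table, Isg15 and Ifit3. Among all genes called lower 2 of 62 with a promoter held them (3.23%), among genes called higher 10 of 244 (4.10%), and among tested genes not called 3.69%.

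Thrsp (Spot 14), which promotes fatty acid synthesis in mammary epithelium, stood at 27.4, 13.4, 98.8 and 28.5 CPM with ASO1 and at 49.1, 30.9, 154 and 52.01 CPM with Mock (-0.88 ± 0.09, edgeR adjusted p = 0.013) and was called without any 1 of the numbers. Its groups overlapped, with ASO1 the lower in every number. No other of 26 tested milk fat and fatty acid genes was called, 5 of them had an unadjusted p under 0.05, and DESeq2 called 2 lower. Xbp1, a transcription factor of secretory cells and of the unfolded protein response, stood at 402, 473, 1095 and 1088 CPM with ASO1 and at 526, 820.2, 1652 and 1911 CPM with Mock (-0.65 ± 0.10, edgeR adjusted p = 0.0238), a call lost without number 2, 3 or 4 (up to 0.0783). The cartilage collagen gene Col2a1 (-1.17 ± 0.19), elastin (Eln, -1.18 ± 0.20), the neural genes Scrg1 (-1.15 ± 0.21) and Sez6 (-1.11 ± 0.20) and Erbb4 had the largest falls after Malat1 among genes named here. Emid1 (-0.79 ± 0.10), the glutathione transferase Gsta3 (-0.74 ± 0.10), the lysine-degrading enzyme Aass (-0.75 ± 0.09), the clock gene Per2 (-0.51 ± 0.08) and the peroxisome proliferation factor Pex11a (-0.51 ± 0.07) fell by smaller amounts. Sez6 was called in none of the 4 fits that leave out 1 number. Calls of Col2a1, Per2 and Pex11a were lost without number 1, 2 or 3, that of Eln without 2, 3 or 4, and that of Scrg1 without 1 or 3 (edgeR adjusted p up to 0.118). Emid1 lost its call without number 2 and Gsta3 without number 3, while Aass was called in all 4 fits.

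Several gene groups held no call in the edgeR fit of the 8 libraries. Of 32 tested speckle splicing factors and SR proteins, 8 had an unadjusted p under 0.05, DESeq2 called 4 lower, the fit of 14 libraries 4 lower and limma-voom none, and the median log2 fold change was -0.06. Of 35 G1/S genes 1 had an unadjusted p under 0.05 and DESeq2 called 1 higher, and of 35 G2/M genes 5 had one and neither DESeq2 nor limma-voom called any (median -0.12, 31 estimates below 0). Among 36 cytoplasmic ribosomal protein genes 7 had an unadjusted p under 0.05, DESeq2 called 2 lower and edgeR without filter 1; among 36 oxidative phosphorylation genes 5 had one and DESeq2 called 1 higher. Of 28 FGF and ERK feedback genes 13 had an unadjusted p under 0.05, and DESeq2, edgeR without filter and the fit of 14 libraries each called 3 higher and 1 lower. Of the 13 mitochondrially encoded and the 13 histone genes tested, 4 each had an unadjusted p under 0.05 and DESeq2 and limma-voom made no call, with 1 histone gene called lower by edgeR without number 2. Of 21 tested MHC genes 3 had one, and DESeq2, edgeR without filter and the fit of 14 libraries each called 1 lower.

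**Figure D4:**
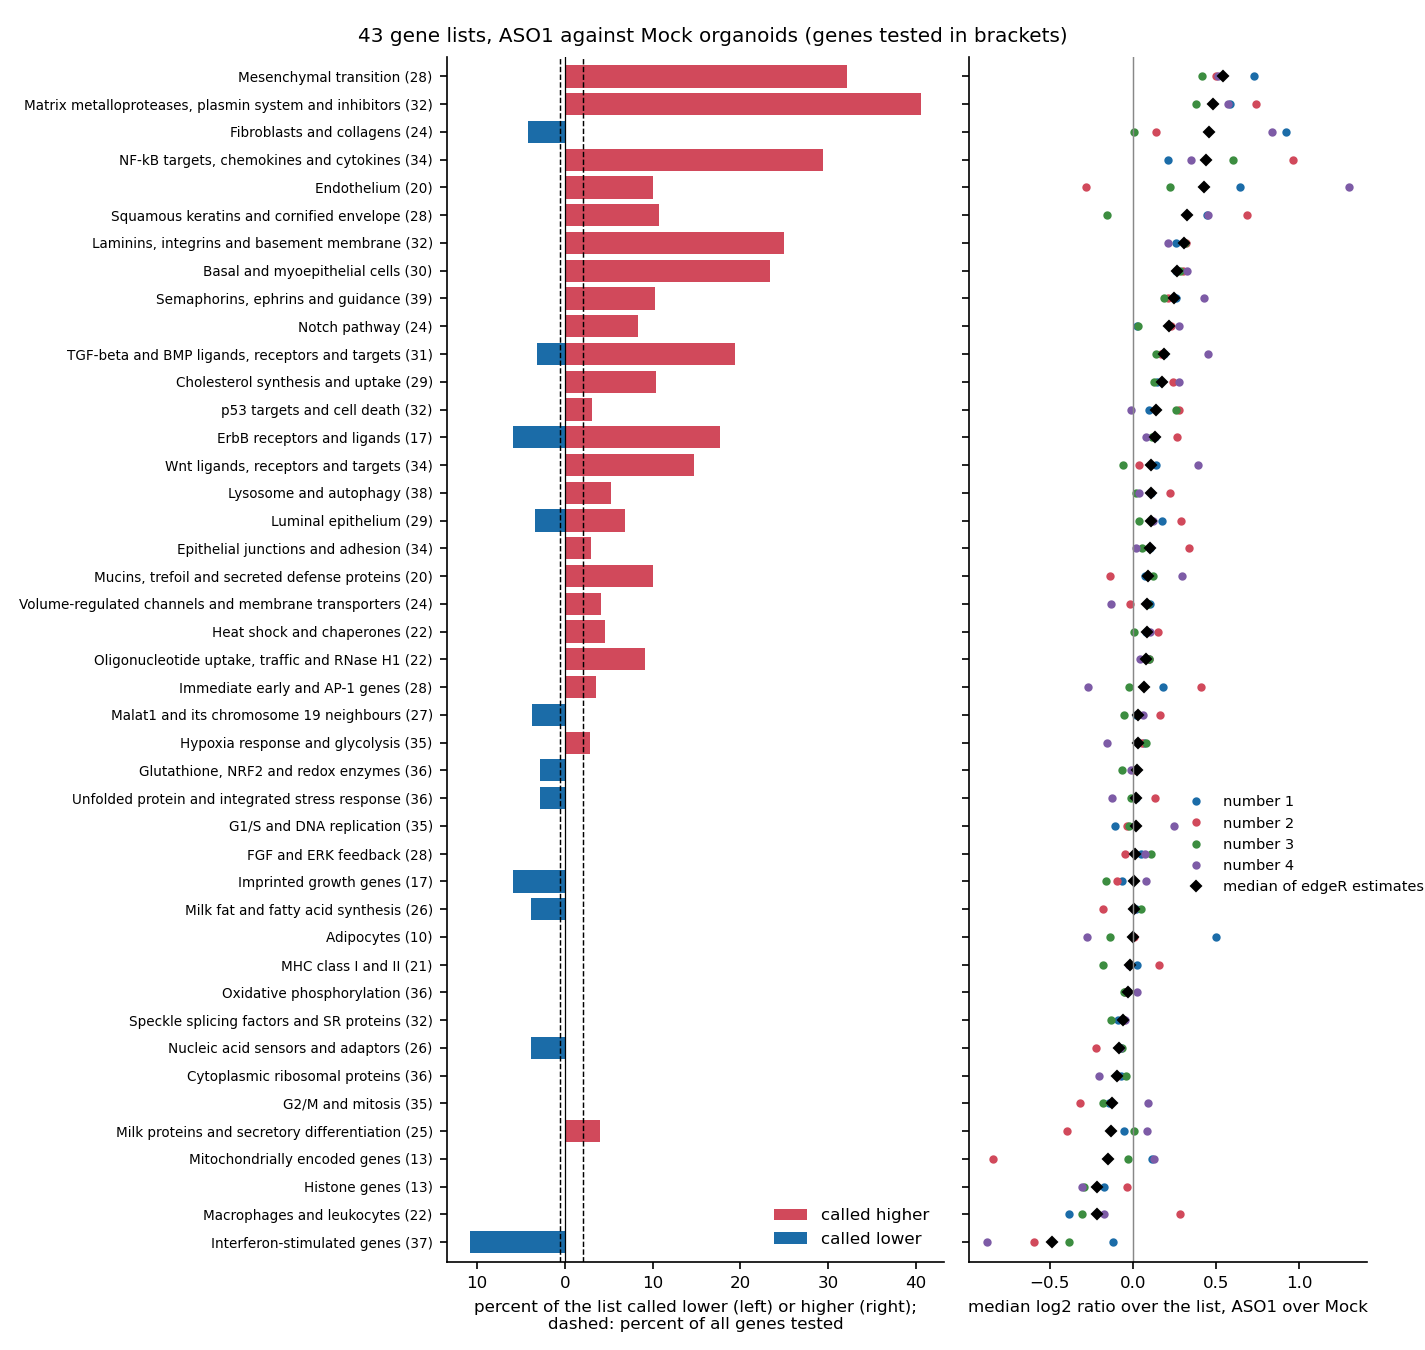
Left, percent of each of 43 gene lists called higher (right of 0) or lower (left of 0) with ASO1, with the percent of all genes tested dashed (2.03% higher, 0.58% lower). Right, median log2 ratio over the list within each number (coloured) and of the edgeR estimates (black); protease, mesenchymal, NF-kB, integrin and basal lists have the highest shares called higher and interferon-stimulated genes the lowest median.

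Markers of other cell types were measured beside these groups. Of 24 tested fibroblast and collagen genes edgeR called none higher and 1 lower (Cxcl12, -0.42). Of these 24, 11 had an unadjusted p under 0.05, DESeq2 called 4 higher and limma-voom 2, and 20 estimates were above 0 (median 0.46). Over 22 endothelial genes the sum ranged from 70.4 to 238 CPM with ASO1 and from 45.7 to 139 CPM with Mock, higher with ASO1 in every number. Flt1 alone held most of this sum in each library, at 40.4 to 164.6 CPM with ASO1 and 26.8 to 85.6 CPM with Mock. The median log2 ratio over the endothelial list was below 0 in number 2 (-0.279) and above 0 in numbers 1, 3 and 4, so the list as a whole was not higher in every number. Of the 20 tested, Cd34 (1.71 ± 0.21) and Flt1 (0.67 ± 0.09) were called higher. The defining genes Pecam1, Cdh5 and Kdr averaged 5.89, 2.83 and 2.59 CPM with ASO1 and 4.92, 1.81 and 1.23 CPM with Mock, not called. Ptprc was lower with ASO1 in every number (log2 fold change -0.90, edgeR adjusted p = 0.0885), and the macrophage receptor Mrc1 had a log2 fold change of -1.04 ± 0.21 (edgeR adjusted p = 0.0545). The macrophage gene Cd68 went the other way (1.12, edgeR adjusted p = 0.0829). Over the macrophage and leukocyte list, 14 estimates were below 0 and 8 above (median -0.22). None of the 22 tested macrophage and leukocyte genes was called by edgeR in the 8 libraries or by limma-voom, 9 had an unadjusted p under 0.05, and DESeq2 called 2 higher and 3 lower. By edgeR 1 was called lower without number 2 and 1 higher without number 4, and the fit of 14 libraries called 2 higher and 2 lower. Over 19 adipocyte genes the range was 143 to 237 CPM with ASO1 and 138 to 233 CPM with Mock, and none of 10 tested was called by edgeR in the 8 libraries or by limma-voom, with 3 at an unadjusted p under 0.05, 1 called lower by DESeq2 and 1 called higher by edgeR without number 3. The part of endothelial cells and adipocytes in the changes above was not tested.

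The same organoid experiment held other oligonucleotides, which share the Mock libraries with the ASO1 comparison. Malat1 stood at 1343, 198, 88.6 and 287 CPM in the ASO2 libraries and at 762, 106, 729.8 and 1129.9 CPM in the scASO libraries, so that the libraries labelled ASO2 number 1 and scASO number 2 go against their labels. Their Epcam levels, 2515 and 1311 CPM, each lay nearer the other number. The other libraries of number 1 held 1168 to 1318 CPM, and those of number 2 held 2078 to 2668 CPM. Fits of all 16 libraries may thus hold these libraries in the wrong number as well as the wrong group. Whether they were exchanged was not tested. Values are given without these 2 libraries and, where stated, over all 16 libraries as labelled. Since the 2 were left out for their Malat1 level, Malat1 values in the 14 libraries are a description fixed in part by that choice. In the fit of 14 libraries Malat1 had a log2 fold change over Mock of -3.07 with ASO1, -2.49 with ASO2 and -0.11 with scASO. Against the same Mock libraries, edgeR called 1159 of 17325 genes with ASO1 (6.69%), 593 with ASO2 (3.42%) and 308 with scASO (1.78%). Over all 16 libraries the counts were 407 of 17126 with ASO1 (2.38%), 312 with ASO2 (1.82%, 1.45% higher and 0.368% lower) and 128 with scASO (0.747%, 0.549% higher and 0.199% lower).

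Many of the genes called with ASO1 were also called with scASO, which left Malat1 near its Mock level. Of the 423 genes, 179 were called in the same direction with scASO in the 14 libraries and 0 in the opposite one. Over all 16 libraries as labelled the counts were 82 and 0. The 423 genes were picked against the same Mock libraries, so this overlap is no independent test. In the fit of 14 libraries the genes called higher had a median log2 fold change over Mock of 0.87 with ASO1 and 0.66 with scASO. Over Mock, the log2 fold change of Mmp10 was 3.18 with ASO1, 1.89 with ASO2 and 2.28 with scASO. For Timp1 the values were 1.64, 1.15 and 1.46, for Grem1 1.78, 1.28 and 2.07, and for Fn1 1.19, 0.84 and 1.17, in the same order. For Lrp1 they were 1.06, 0.95 and 0.86, and for the falling Thrsp -0.90, -0.72 and -0.86. All of these were called with each oligonucleotide in that fit. Over all 16 libraries as labelled the call of Mmp10 with scASO was lost (edgeR adjusted p = 0.0906), as were those of Thrsp with ASO1 (0.0771), ASO2 (0.0817) and scASO (0.322), while Timp1, Grem1, Fn1 and Lrp1 were called with each. Erbb4 gave -1.65 with ASO1, -1.74 with ASO2 and -0.53 with scASO, of which the scASO value was not called (edgeR adjusted p = 0.328). Krt14 gave 0.80 with ASO1, 0.86 with ASO2 and 0.42 with scASO, the last again not called (edgeR adjusted p = 0.141). In that fit 4.39% of all genes were called higher and 2.3% lower with ASO1, 2.27% and 1.15% with ASO2, and 1.4% and 0.375% with scASO. Of 33 protease list members tested in it, 14 were called higher and 1 lower with ASO1, 8 higher with ASO2 and 9 higher with scASO. Over all 16 libraries 9, 5 and 3 were called higher, in the same order. Of 37 interferon-stimulated genes, 4 were called lower with ASO1 and none with ASO2 or scASO, with medians of -0.49, -0.34 and -0.08. Over all 16 libraries none was called with any of the 3, and the medians were -0.52 with ASO1, -0.13 with ASO2 and -0.38 with scASO, so that the order of ASO2 and scASO turned. In the fit of all 16 libraries as labelled, other lists that rose with ASO1 also had medians above 0 with scASO. That fit holds the scASO library of number 2, with Malat1 at 106 CPM. The likeness of these medians may rest in part on it. The medians with ASO1 and scASO over the 16 were 0.54 and 0.44 for mesenchymal transition and 0.27 and 0.27 for basal genes. For laminins and integrins they were 0.32 and 0.24, for guidance genes 0.24 and 0.30, and for Wnt genes 0.17 and 0.22. The NF-kB list had 0.48 and 0.21, and the squamous list 0.33 and 0.10.

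**Figure D5:**
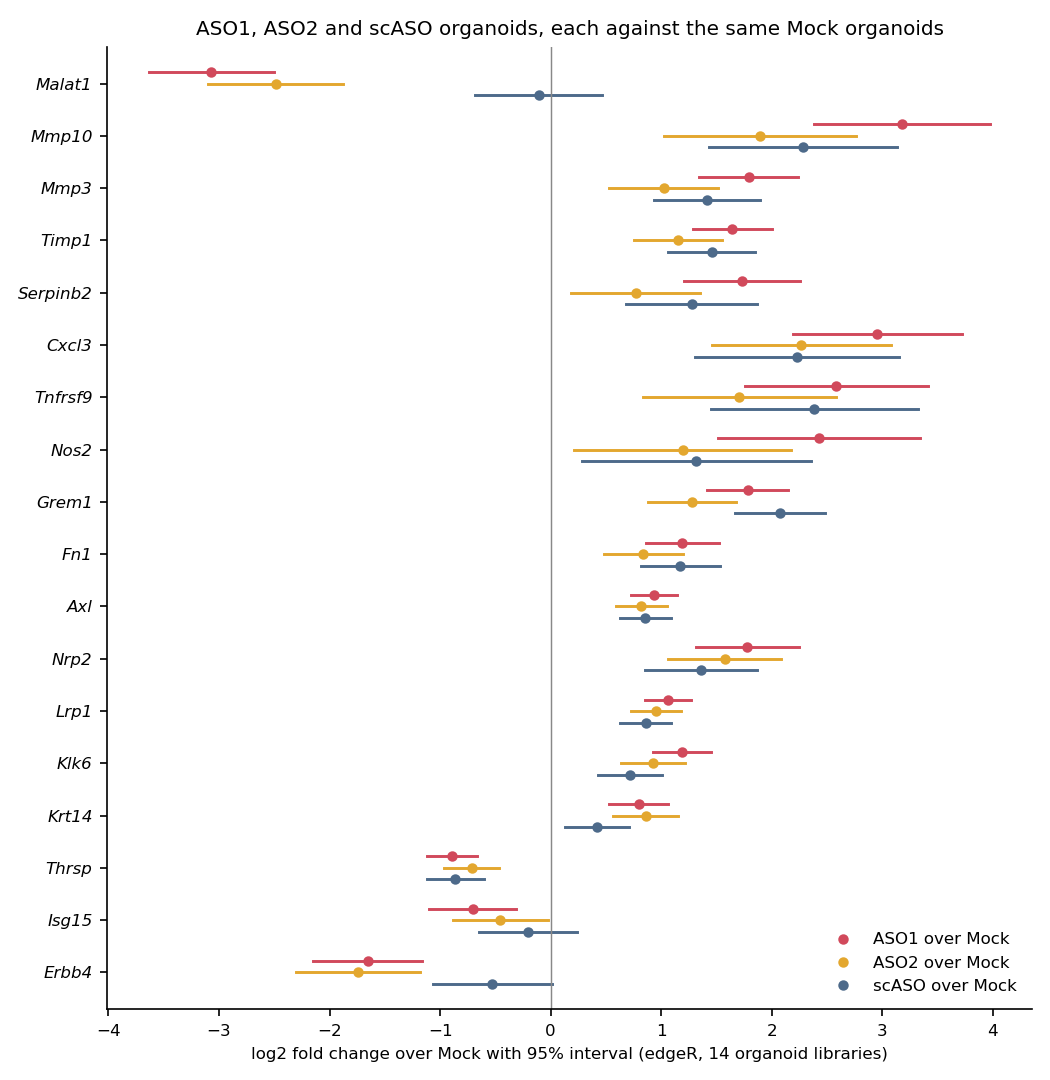
Log2 fold change over Mock with its 95% interval for ASO1, ASO2 and scASO organoids, for 18 named genes in the edgeR fit of 14 libraries, where the 3 comparisons share the Mock libraries. Malat1 lies at -3.07, -2.49 and -0.11, while Timp1, Grem1, Fn1, Axl and Lrp1 lie above 0 and Thrsp below 0 with all 3.

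The difference between oligonucleotides was tested directly. Between ASO1 and scASO, edgeR called 1 gene of 17325 in the 14 libraries (0.00577%). It was Malat1, the gene by which the left-out libraries were chosen, so that its call is no independent test (log2 fold change of ASO1 over scASO -2.96, 95% interval -3.54 to -2.38), with 1031 genes at an unadjusted p under 0.05 and 6 called by DESeq2. Over all 16 libraries as labelled edgeR called none of 17126, with 1226 at an unadjusted p under 0.05, and DESeq2 called 2 (Myo1f and Rps15a-ps7, named after their values were seen). In the fit of 14 libraries the difference between ASO1 and scASO was 0.90 (0.09 to 1.70) for Mmp10, with the 95% interval in brackets. For Timp1 it was 0.19 (-0.20 to 0.57) and for Fn1 0.02 (-0.35 to 0.38) in that fit. For Erbb4 it was -1.13 (-1.68 to -0.57, edgeR adjusted p = 0.606) and for Klk6 0.47 (0.18 to 0.75, 0.743), again in the 14 libraries. A p above the threshold does not show that the oligonucleotides act alike, and these intervals allow differences of up to the bounds given. Between ASO1 and ASO2 edgeR called no gene in the 14 libraries (453 at an unadjusted p under 0.05, 4 called by DESeq2: Crim1, Rev1, Atg4c and Itgax, named after their values were seen) and none in the 16 (342 at an unadjusted p under 0.05, and Itgax called by DESeq2). In the 14 libraries Mmp10 differed between ASO1 and ASO2 by 1.28 (0.50 to 2.07) and Krt14 by -0.06 (-0.35 to 0.23) on the log2 scale.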

How the data were processed

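Polyadenylated RNA of 8 organoid libraries (4 ASO1, 4 Mock) was compared, and the 8 ASO2 and scASO libraries of the same experiment were used where stated. RNA was isolated with TRIzol and libraries were built from 1 µg with TruSeq chemistry, per the labels' protocols. The authors deposited raw read counts per gene, 1 file per library. CASAVA, FastQC, STAR, HTSeq and DESeq2 and the mm9 build are named in the submitters' processing notes, without versions or roles. Neither the annotation nor whether counting used strand is stated there. The files' lines for reads without a gene were removed before fitting. Per 100 reads in genes, these lines came to 9.25 to 14.5 (outside any gene), 4.44 to 8.04 (ambiguous) and 22.7 to 32.7 (several alignments). Reads with several alignments are thus missing from genes with near-identical copies, and genes that overlap another are uncertain.

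Of 37310 gene IDs, 32620 had a symbol in GENCODE M21 (GRCm38). Counts were fitted with edgeR 4.0.16 (R 4.3.3; TMM, filterByExpr with a minimum count of 10 and minimum total of 15, quasi-likelihood F-test) with the replicate number as a block, and p-values were adjusted by Benjamini-Hochberg over all genes tested, with a threshold of 0.05. The standard error is the log2 fold change over the square root of F. TMM-normalized library sizes enter CPM, and 2 is the prior count for log2 CPM. The numbers pair the libraries: all 4 same-number correlations exceeded 0.1, against a median of -0.27 between different numbers, and numbers accounted for 99.2% of the first component's variation (500 most variable genes). Chi-square values per degree of freedom between libraries of 1 group were 99.8 to 413, so none were alike within sampling noise. Single values were tested with exact permutation tests. The fit was tested on simulated data. Promoters come from RefSeq (GRCm38.p6), and no coordinate of the authors' build is given.

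Genes and 43 gene lists (1206 symbols, 1189 matched) were chosen with earlier results of these data known. Named genes are Malat1, Neat1, per direction the 15 called genes with the smallest p and the 5 with the largest change (mean log2 CPM of at least 1), and, for lists with at least 3 calls and for cell type markers, the most abundant member and at most 4 others, taken by p. Other called members were named, after their values were seen, to complete a list's count. Some genes, and the list that rests on them, are not reported here. Alternatives were other normalization, no filter, DESeq2 1.42.0, limma-voom 3.58.1, no block, 16 or 14 organoid libraries and leaving out each number.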

Additional observations from a re-analysis of the deposited data

Results flagged for a closer look

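Within-number log2 ratios of ASO1 over Mock were screened for a number far from the other 3 by Dixon's ratio, the gap to the nearest value over the whole range, in 111 named genes and in the medians of 43 lists, with Malat1 CPM in the 4 organoid groups. Chance marks about 1 in 20 such sets, and 13 were marked. Among genes, Axl was marked for number 2 (ratio 0.929; log2 ratios 0.87, 1.12, 0.89 and 0.88 for numbers 1 to 4), and Wnt11 for number 3 (0.961; 1.198, 1.21, 0.82 and 1.198). Ankrd1 was marked for number 1 (0.916; 1.38, 3.43, 3.26 and 3.39), Plekhd1 for number 2 (0.864; -0.70, -1.08, -0.67 and -0.65) and Oas2 for number 4 (0.831; -0.65, -0.84, -0.73 and -1.80). Each of these 5 genes kept its direction in all 4 numbers.

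Among lists, number 4 was far from the others for oligonucleotide uptake, traffic and RNase H1 (0.987; median log2 ratio 0.04 in number 4), hypoxia response and glycolysis (0.891; -0.15), oxidative phosphorylation (0.920; 0.03) and TGF-beta and BMP genes (0.843; 0.45). Number 2 was far for nucleic acid sensors (0.949; -0.22), milk fat and fatty acid synthesis (0.833; -0.18) and mitochondrially encoded genes (0.835; -0.84). Malat1 CPM in the ASO2 organoids was marked for the library of number 1 (0.841), which held 1343 CPM.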

How the results depend on the processing

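Against 423 calls (329 higher, 94 lower), edgeR without filter on low counts gave 1063 (761, 302), DESeq2 with the block 1187 (769, 418) and the fit of 14 organoid libraries 1159 (761, 398), so that the share higher, 77.8%, was 71.6, 64.8 and 65.7%. DESeq2 size factors gave 428, limma-voom 497 and all 16 organoid libraries 407. Leaving out each number gave 112 to 243 calls, 103 to 208 higher and 9 to 44 lower. Without the replicate block 0 genes were called (0 higher, 0 lower), and Malat1, at -3.12, had an adjusted p of 0.235 by edgeR; with the block it was called without any 1 number, at log2 fold changes of -3.44 to -2.84 without each number. The cause of these differences was not tested. Between ASO1 and scASO the count was 0, 1 without the libraries labelled ASO2 number 1 and scASO number 2, 2 by DESeq2 and 0 to 1 without each number (Bcl2 without number 1). Between ASO1 and ASO2 it was 0, 1 by DESeq2 and 0 to 0 without each number. Direction turned for 7 named genes that were not called, with log2 fold changes over the fits without each number of -0.0086 to 0.24 for Ltbp2 (below 0 without number 4), -0.22 to 0.037 for Neat1 (above 0 without number 4), -0.0011 to 0.20 for Epcam (below 0 without number 2) and -0.21 to 0.0088 for Pnpla2 (above 0 without number 3). The ranges were -0.035 to 0.21 for Ifitm3 (below 0 without number 3), -0.077 to 0.029 for Lrp5 (above 0 without number 2) and -0.17 to 0.12 for Errfi1 (above 0 without number 1, at 0.021, and without number 4). Precision is limited by 4 numbers, and low counts add counting error for Cxcl3 and Erbb4.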

Other observations

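In further lists 1 or 2 members each were called by edgeR in the 8 libraries, where 2.03% of all genes tested were called higher and 0.58% lower. The monocarboxylate exporter Slc16a3 had a log2 fold change of 0.77 ± 0.08 and was the called member of 35 tested hypoxia and glycolysis genes, where DESeq2 called 1 higher and 1 lower. Desmoplakin (Dsp, 0.48 ± 0.08), 1 of 34 tested junction genes, the cell cycle inhibitor Cdkn2b (0.48 ± 0.09), 1 of 32 p53 and cell death genes, and the chaperone Hspa4l (0.53 ± 0.09), 1 of 22 heat shock genes, were called higher as well. The junction list held no call in any of the 4 fits that leave out 1 number, and the p53 and heat shock lists held a call in 1 of the 4 such fits each. Of 38 tested lysosome and autophagy genes Gpnmb and the galactosidase Gla (0.43 ± 0.08) were called, and of 20 tested mucin and secreted defense genes C3 and the chitinase-like Chil1 (0.61 ± 0.11). Among 22 tested genes of oligonucleotide uptake and RNase H1, Lrp1 and the annexin Anxa1 (0.62 ± 0.12) were called higher. The imprinted cell cycle inhibitor Cdkn1c fell (-0.87 ± 0.15) among 17 tested imprinted genes, of which DESeq2 called 2 lower. These genes were named after their values were seen.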
